A study of Mus musculus with 27 samples.

Results

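Day 1 chondroprogenitors of the mouse limb bud were compared with multipotential mesenchymal cells of the limb bud, the first step towards cartilage that the study sampled. The samples were chosen by their titles: day 1 replicates 1, 3 and 4 and mesenchymal replicates 1, 3 and 4, which are 6 of the 9 RNA samples of the study. Each RNA was hybridised to the Affymetrix mouse arrays A, B and C, so that 18 of 27 arrays enter the comparison. The other 9 arrays hold chondroblasts harvested at day 3 (3 RNA samples). They share the estimate of spread and are used below for the step that follows.

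Both groups are cells of Mus musculus from the subridge region, the mesenchyme beneath the ridge at the tip of the limb bud. The labels name no allele, transgene or agent for either group, and they do not give the strain or the age of the embryos, whether embryos were pooled, or a day for the mesenchymal cells. Purity is put at 90 to 95% in every sample, and the cells named as contaminating are fibroblasts. Nothing says whether replicates were separate cultures or animals, so p-values measure the spread of these samples alone, and that may be technical. In such bulk RNA, fewer cells of a type and less RNA per cell cannot be told apart.

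Limb cartilage starts when loose mesenchymal cells gather into condensations, switch on the transcription factor Sox9 and then its partners Sox5 and Sox6, and begin to secrete a matrix of cartilage collagens and proteoglycans. Bone morphogenetic proteins (BMPs) and growth and differentiation factors (GDFs) promote this commitment, whereas retinoic acid, made from vitamin A by retinol and retinaldehyde dehydrogenases, holds it back and is broken down by Cyp26 enzymes. Wnt, FGF and hedgehog signals set where and when condensations form.

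The values are signals, the brightness of a probe set on a linear scale, rescaled so that the trimmed mean of each array is 500. A probe set was tested where the mean signal reached 200 in at least 1 of the 3 groups, which 23551 of 36701 did. Errors of log2 changes are standard errors from limma with n = 3 samples per group, and changes are on the scale of log2(signal + 50), which understates those of dim genes. A change passed the test at a Benjamini-Hochberg adjusted p under 0.05. Between 41.9% and 48.1% of probe sets lay below a signal of 200 in the 6 samples, with group means of 44.1 ± 1.95% and 47.0 ± 1.29% (SD, n = 3; exact permutation p = 0.1, the smallest that 3 against 3 samples allow). The signals were correlated at 0.74 to 0.93 between mesenchymal samples and at 0.836 to 0.962 between day 1 samples of 1 array type. The ratio of 3′ to 5′ actin probe sets, which rises as RNA breaks down, was 1.16 ± 0.116 and 1.11 ± 0.0267 (SD, n = 3; exact permutation p = 0.9). The 18S ribosomal control was bright in mesenchymal replicate 1 (27463) and day 1 replicate 4 (33283), and lay between 1624 and 5634 in the other 4 samples.

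The label of the day 1 samples was checked against genes that mark young cartilage. Of 10 chondroprogenitor markers, 8 were tested and 6 rose (Matn4, Col9a1, Col9a3, Sox6, Col11a1 and Sox9). Their summed signal was 4331 to 4702 in mesenchymal samples and 21697 to 27342 at day 1, with no overlap. Hapln1, the link protein of cartilage, had a log2 change of -0.02 ± 0.41 (limma, adjusted p = 0.984), with means of 41.7 and 41.7. Acan, the core protein of aggrecan, had 0.57 ± 0.26 (adjusted p = 0.27), with 150.3, 141 and 101 in mesenchymal samples and 265, 196 and 193 at day 1. Col2a1 and Sox5 had mean signals below 200 in every group and were not tested. Of 9 fibroblast markers 2 rose, Col1a1 and Postn, and none fell, with a median log2 change of 0.09. Those that did not pass were Fn1 (0.74), Dcn and Pdgfra (both 0.09), Col1a2 (-0.39), Pdgfrb (-0.54), Col3a1 (-0.70) and Lum (-0.84). The summed signal was 6329 to 7600 in mesenchymal samples and 8692 to 10256 at day 1. Within it, Col1a1 alone had 356 to 735 and 2554 to 3533. The part of fibroblasts in the changes below was not tested.

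In all, 1129 of 23551 probe sets passed the test (4.79%), 849 higher and 280 lower at day 1. With 1 probe set per gene, 556 of 12214 genes rose (4.55%) and 167 fell (1.37%), which are the shares against which each gene list below is read. The lists and their members were chosen with earlier results of these data known. A list share above these is therefore a description and not an independent test. The median log2 change over all genes was -0.02, and some genes sit in more than 1 list. The groups did not overlap for 722 of these 723 genes, and did not overlap for 25.9% of all genes tested. A lack of overlap in a gene that passed thus adds little to its call. By size, 92 genes rose and 16 fell at least 4-fold. Among the 556 rises, 117 had a mesenchymal mean below 200, and among the 167 falls, 46 had a day 1 mean below 200. Such genes passed the filter only through another group, so their place among the genes tested is not independent of their change. Calls were more frequent on array type A (7.85% of its genes) than on type B (5.18%) or C (2.56%), where the median standard error was 0.25, 0.312 and 0.488. Without day 1 replicate 1 the count of probe sets was 555, without day 1 replicate 3 it was 574, and with the scan batch as a block it was 615. Within 1 batch that block compares day 1 replicate 1 alone with mesenchymal replicates 1 and 3 on type A, the 3 day 1 samples with mesenchymal replicates 1 and 3 on type B, and the 3 day 1 samples with mesenchymal replicate 3 alone on type C. Mesenchymal replicate 4 was alone in its batch on each type and does not bear on the blocked values. In all 19 alternatives 222 genes (200 higher, 22 lower) passed. Of the 141 calls of genes picked by the naming rule, 68 were lost in at least 1 alternative and 73 in none; losses to a left-out sample or to the scan batch are given with the genes whose values are described. Among rises given by name alone, Tsc22d1, Tgfb1i1, Sfrp1, Twist2, Tbx5, Msx2, Sdc2, Sdc4, Itga11, Ptx3, Socs2, Snai1, Snai2 and Zeb1 each lost the call in at least 1 alternative, as did Col9a2, Col11a1, Cnn1, Cald1, Smtn, Col5a2, Ccn1, Fbn2, Emilin1, Ski, Id1, Fzd2, Fzd8, Robo1 and Syndig1. Of the falls given by name alone, Lmo2 and Cd34 did so.

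The largest rises held genes of cartilage, muscle-type actin, retinoid synthesis and limb regulators. Cytl1, a secreted protein of cartilage, had signals of 75.96, 43.5 and 11.96 in mesenchymal samples and 2448, 2677 and 1380.0 at day 1, a log2 change of 4.57 ± 0.39 (limma, adjusted p = 4.93e-06). Matn4, a matrilin of the cartilage matrix, went from 292, 146 and 172 to 6768, 4863 and 5559.7 (4.54 ± 0.25, adjusted p = 9.07e-07). All day 1 values of both genes lay far above all mesenchymal values. Another probe set of each was dim and did not pass (log2 changes of 0.94 and 0.19). Kirrel3, an adhesion protein of the immunoglobulin family, went from 83.9, 71.7 and 106 to 2733, 3199 and 1459.5 (4.13 ± 0.42, adjusted p = 2.66e-05), with day 1 replicate 4 the lowest of its group. Ak1, the adenylate kinase of the cytosol, went from 35.9, 47.3 and 115 to 1878, 1964 and 1445 (4.01 ± 0.26, adjusted p = 2.71e-06). Prss35, a serine protease-like secreted protein, had a log2 change of 4.01 ± 0.43, and Fibin, a secreted protein of the limb bud, 3.79 ± 0.27. Plk2, a polo-like kinase induced by growth signals, was bright in both groups, with 1672, 1056 and 2657 in mesenchymal samples and 18201, 13274 and 15711 at day 1 (3.18 ± 0.26, adjusted p = 2.03e-05). The 12 largest rises were picked among genes whose groups did not overlap, so the lack of overlap in them was fixed by that choice. Plk2 lies outside these 12, and its groups did not overlap either.

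The 12 largest falls held vessel genes, early progenitor genes, Plxnd1 and Crabp1, which are described with their groups below, and 4 others. Recql5, a DNA helicase, went down from 1858, 1504 and 784 to 249.5, 243 and 216 (-2.24 ± 0.38, limma adjusted p = 0.0023). Its day 1 values lay close together, while its mesenchymal values spread more. Pip4k2c, a kinase of phosphoinositides, went from 6926, 3699.6 and 2057 to 193, 631 and 1857 (-2.48 ± 0.62, adjusted p = 0.0391). It was lowest in day 1 replicate 1 and highest in mesenchymal replicate 1, as was the summed signal of erythroid markers (11061 and 262015); the part of blood cells in it was not tested. Its call was lost without mesenchymal replicates 1 or 3, day 1 replicates 1 or 3 or day 3 replicates 1 or 3 (0.0532 to 0.144). Ppbp, a chemokine of platelets, had -2.22 ± 0.49 (adjusted p = 0.0169), lost without mesenchymal replicates 3 or 4 or day 1 replicates 1 or 3 (0.0533 to 0.0724) and with the scan batch as a block (0.085). Cyria, a regulator of Rac, had -2.13 ± 0.45 (adjusted p = 0.0125), lost without mesenchymal replicate 3 or day 1 replicate 3 (0.051 to 0.061).

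**Figure D1:**
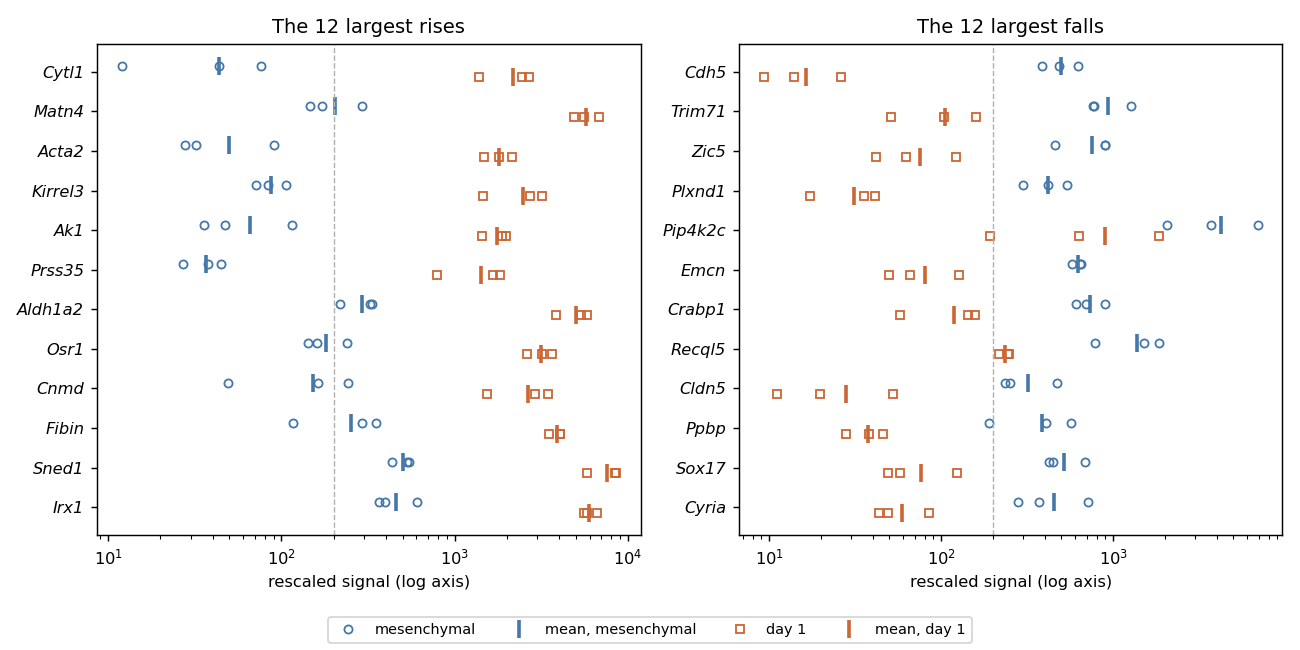
Rescaled signal (log axis) of the 12 genes with the largest rise and the 12 with the largest fall among genes that passed the test and whose groups did not overlap; circles are the 3 mesenchymal samples, squares the 3 day 1 samples, short bars the group means, and the dashed line marks the filter at a signal of 200. Mesenchymal signals of Cytl1 lay at 11.96 to 75.96 and day 1 signals at 1380.0 to 2677, while Cdh5 went the other way, from 384 to 624 down to 9.28 to 26.2.

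Many genes of the cartilage matrix rose. Of 20 tested, 10 rose (50%, against 4.55% of all genes) and none fell, with a median log2 change of 1.44. Col9a1 and Col9a3 encode chains of collagen IX, which coats the collagen II fibrils of cartilage. Col9a1 went from 1012, 875 and 745 in mesenchymal samples to 7799, 6744 and 5281 at day 1 (2.84 ± 0.20, adjusted p = 6.25e-06). Col9a3 went from 725, 602 and 559 to 3665, 3119.8 and 3546 (2.37 ± 0.17, adjusted p = 7.14e-06). The lowest day 1 value of each gene stood several times above its highest mesenchymal value. Cnmd, the cartilage protein chondromodulin that repels blood vessels, went from 48.8, 242 and 163 to 2898, 3463 and 1529 (3.79 ± 0.40, adjusted p = 3.61e-05). Its highest mesenchymal value was far below its lowest day 1 value, 1529. Chst11, a sulfotransferase of chondroitin chains, Col27a1, Col9a2, Col11a1 and Papss2, which makes the sulfate donor, also rose. So did Cytl1 and Matn4, described above. The count was 8 with the scan batch as a block and at least 9 when any library was left out.

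Among 15 chondrogenic transcription factors, 4 rose (26.7%) and none fell, with a median of 0.38. Sox9, the master regulator of cartilage, went from 2086, 2720.3 and 2395 in mesenchymal samples to 7385, 5569.8 and 7996 at day 1 (1.51 ± 0.19, adjusted p = 0.000263). It was thus bright in the mesenchymal cells, and each day 1 sample lay above each of theirs. Its 4 other probe sets had log2 changes of 0.10 to 1.34 and none passed. Sox6, its partner, was dim in mesenchymal cells (54.95, 111 and 74.9) and reached 535, 531 and 596 at day 1 (2.23 ± 0.25, adjusted p = 0.000247). Nfib, a nuclear factor I protein, went from 319, 336 and 346 to 1243, 771 and 1131 (1.49 ± 0.21, adjusted p = 0.0013), and its 5 other probe sets all rose too. Nfia, of the same family, had 1.32 ± 0.33 (adjusted p = 0.0422) with 3 other probe sets that rose. The call on its own probe set was lost without mesenchymal replicates 3 or 4, day 1 replicates 1, 3 or 4 or day 3 replicates 1, 3 or 4 (0.0534 to 0.175) and with the scan batch as a block (0.255).

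Several ligands of the BMP and GDF family rose at day 1. Of 17 ligands and receptors tested, 4 rose (23.5%) and 1 fell (5.88%), with a median of 0.05. Gdf5, a ligand that marks condensations and later joints, went from 228, 329.7 and 211 to 3329, 3669 and 2799.9 (3.45 ± 0.19, adjusted p = 8.86e-07). Bmp7 went from 241, 352 and 349.8 to 2944, 2793 and 2070.1 (2.86 ± 0.21, adjusted p = 7.31e-06), as did its second probe set. Gdf10 went from 246, 132 and 409 to 1165, 1469 and 1290.3 (2.22 ± 0.27, adjusted p = 0.000471). Bmp4 went from 682, 607 and 443 to 1736, 1478 and 1407 (1.36 ± 0.19, adjusted p = 0.00116), and its 2 dimmer probe sets had -0.19 and 0.74 and did not pass. Bmp2 went from 123, 209 and 348 to 663, 885 and 430.4, with groups apart and the probe set short of the threshold (1.39 ± 0.38, adjusted p = 0.0579). A second, brighter probe set of Bmp2 on array type B rose, from a mean of 2611 to 5642 (1.06 ± 0.24, adjusted p = 0.0198); the counts here use the first. The fall was in Acvr2b, an activin type II receptor, from 2575, 2378 and 2299 to 1365, 1107 and 1109 (-0.99 ± 0.16, adjusted p = 0.00382). Its adjusted p ranged from 0.00123 to 0.113 over the alternatives, the highest with the scan batch as a block.

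BMP antagonists and genes known to respond to BMPs rose too. Of 17 tested, 7 rose (41.2%) and none fell, with a median of 0.75. Sostdc1, a secreted antagonist of BMP and Wnt, went from 712, 369.7 and 262 to 5005, 3833 and 4144 (3.23 ± 0.27, adjusted p = 7.14e-06). Fstl1, a follistatin-like protein, went from 1732, 1762 and 1879.6 to 4844, 3924 and 5151 (1.34 ± 0.14, adjusted p = 0.000182). Smad6, an inhibitory Smad induced by BMP, went from 707, 717 and 824 to 2241, 2380.3 and 1913 (1.48 ± 0.17, adjusted p = 0.000356). The helix-loop-helix proteins Id3 and Atoh8 had log2 changes of 1.22 ± 0.22 (adjusted p = 0.00617) and 1.45 ± 0.24 (adjusted p = 0.00197). Nog (noggin) and Id1 made up the 7. Id3 had signals of 4694, 3446 and 5566 in mesenchymal samples and 12469.5, 11586 and 8105 at day 1, and its groups did not overlap.

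For TGF-beta signalling, 6 of 19 genes rose (31.6%) and none fell, with a median of 0.40. Tgfbi, a matrix protein named for its induction by TGF-beta, went from 459, 599 and 553 to 3615, 3035 and 2215 (2.33 ± 0.28, adjusted p = 0.000352). Of the ligands, Tgfb3 went from 565, 654 and 379 to 1424, 1381 and 1216 (1.28 ± 0.20, adjusted p = 0.00274), and Tgfb2 from 54.1, 176 and 66.6 to 539.6, 721 and 593 (2.25 ± 0.30, adjusted p = 0.00079, 0.000214 to 0.0525 over the alternatives and highest with the scan batch as a block). For both ligands every day 1 sample lay above every mesenchymal sample. Tsc22d1 and Tgfb1i1, both known as TGF-beta targets, and Ski, a repressor of Smads, were the others. The count was 3 without mesenchymal replicate 1, without day 1 replicate 1, without day 1 replicate 3, and with the scan batch as a block.

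Retinoid genes that passed the test act in synthesis, breakdown, transport and reception. Of 15 tested, 6 rose (40.0%) and 1 fell (6.67%), with a median of 0.58. Rdh10, the retinol dehydrogenase of the first step of synthesis, went from 2026, 2384 and 2565 in mesenchymal samples to 21510.1, 19429.5 and 20357 at day 1 (3.11 ± 0.18, adjusted p = 3.17e-07), and its 2 other probe sets also rose. Aldh1a2, the retinaldehyde dehydrogenase of the second step, went from 326, 217 and 332 to 5807, 5346 and 3838 (3.88 ± 0.21, adjusted p = 8.35e-07). Of its other probe sets 1 rose by 1.60 and 1 dim one had -0.39 (adjusted p = 0.769). Rarb, a retinoic acid receptor that retinoic acid itself induces, went from 453, 180.0 and 298 to 2426, 2952 and 1954 (2.84 ± 0.29, adjusted p = 4.12e-05). In all 3 genes each day 1 sample lay above each mesenchymal sample. Crabp1, which binds retinoic acid in the cytoplasm, went down from 609.8, 696 and 901 to 157, 142 and 57.4 (-2.26 ± 0.30, adjusted p = 0.000818). Its adjusted p ranged from 0.000178 to 0.0636 over the alternatives and was highest with the scan batch as a block.

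The other retinoid rises were less firm. Dhrs3, which turns retinaldehyde back into retinol, went from 58.1, 195 and 228 to 1017, 735 and 3260.0, with day 1 replicate 4 standing far above the other 2 (2.85 ± 0.50, limma adjusted p = 0.00606, 0.00161 to 0.105 over the alternatives and highest with the scan batch as a block). Rarg, the receptor most tied to cartilage, went from 821, 904 and 1076 to 2042, 1588 and 1450.0 (0.82 ± 0.19, adjusted p = 0.0305), and the call was lost without mesenchymal replicates 1 or 3, day 1 replicates 1 or 3 or day 3 replicate 1 (0.0525 to 0.147). Cyp26a1, the enzyme that breaks retinoic acid down, lies outside the rule for named genes and was chosen after its values were seen. It went from 276, 216 and 41.98 to 749, 525 and 526 (1.69 ± 0.42, adjusted p = 0.0406). It passed in 7 of 19 alternatives. Leaving out mesenchymal replicate 3 or 4, any day 1 replicate, or day 3 replicate 1 or 3 ended the call (adjusted p of 0.0528 to 0.163), as did the scan batch as a block (0.107). The retinoid count was 4 rises with the scan batch as a block, and 4 without mesenchymal replicate 3, day 1 replicate 1, day 1 replicate 3 or day 3 replicate 1.

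**Figure D2:**
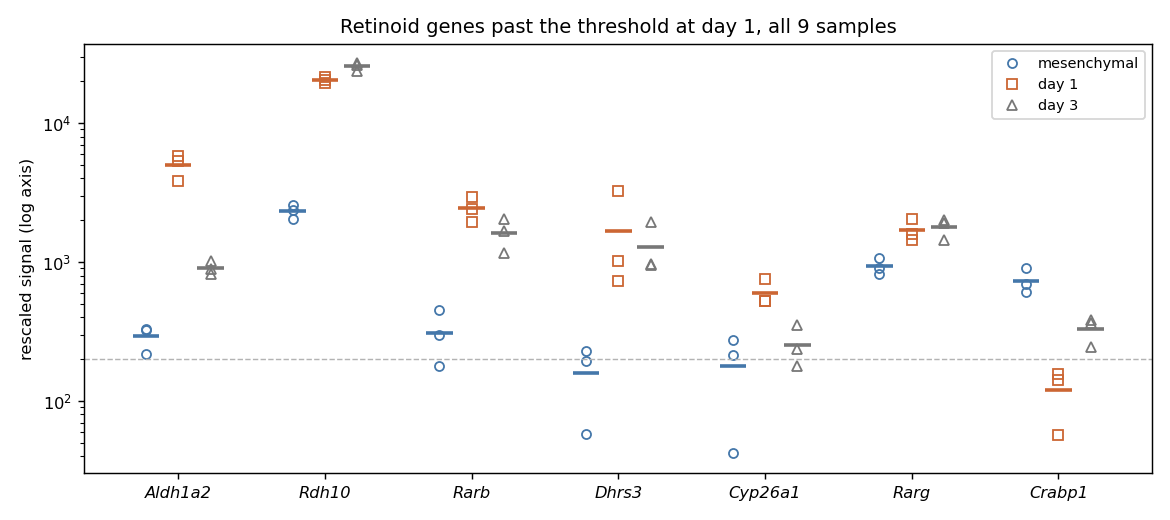
Rescaled signal (log axis) of the 7 retinoid genes that passed the test at day 1, in all 9 samples; circles are mesenchymal, squares day 1 and triangles day 3 samples, short bars are group means and the dashed line marks the filter at 200. Rdh10 stayed bright at day 3 with a mean of 25573, while Aldh1a2 fell back to a mean of 912 and Crabp1 fell from a mean of 736 to 119 at day 1.

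The promoters of Rarb and Cyp26a1 are shown because they held the classical retinoic acid response element, a direct repeat with a spacer of 5 bases (DR5), within 250 bases before to 50 bases after the RefSeq start of the gene. The element was searched on both strands. It was found in 2 of the 11 retinoid genes with a promoter in the table (18.2%) and in 7 of 9793 tested genes with one (0.0715%). The other 5 were Blvrb, Hbb-y, Ppbp, Syndig1 and Tnfsf13b, with log2 changes of -0.996, -1.33, -2.22, 0.81 and 0.41, of which Ppbp fell and Syndig1 rose; these were chosen by the match. The sequences are from RefSeq on build GRCm38.p6, 5′ to 3′ on the strand of the gene, with the element in capitals. The Rarb window is chr14:16575427-16575726, minus strand, and its element starts 53 bases before the start of the gene. The Cyp26a1 window is chr19:37697558-37697857, plus strand, and its element, which reads on the opposite strand, starts 32 bases before the start. A match describes the sequence and not a bound site. The DR5 element was 1 of 8 pairings of a motif and a gene list that were searched in the same windows, on both strands. The GC-rich Smad element GGCGCC was in 3 of 9 BMP antagonists and response genes (33.3%, against 23.6% of all tested genes) and in none of the 4 that rose. The E2F elements TTTCCCGC and TTTGGCGC were each in 5 of 32 DNA replication genes (15.6%, against 2.15% and 1.08%), and in 0 and 1 of the 3 that fell. The CCAAT box was in 27 of 33 mitosis genes (81.8%, against 42.5%) but not in the 1 that fell, and the ETS site AGGAAG in 5 of 7 endothelial genes (71.4%, against 36.5%), with 2 of the 3 that fell. The CArG box was in 1 of 22 immediate early and stress genes (4.55%, against 1.60%), and its match in the actin list is given there.
Rarb promoter: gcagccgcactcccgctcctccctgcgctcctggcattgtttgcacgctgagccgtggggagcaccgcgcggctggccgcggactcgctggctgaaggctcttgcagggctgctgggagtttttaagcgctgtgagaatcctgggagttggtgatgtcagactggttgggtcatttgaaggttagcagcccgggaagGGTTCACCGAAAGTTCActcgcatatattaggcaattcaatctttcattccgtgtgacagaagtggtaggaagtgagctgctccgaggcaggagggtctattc
Cyp26a1 promoter: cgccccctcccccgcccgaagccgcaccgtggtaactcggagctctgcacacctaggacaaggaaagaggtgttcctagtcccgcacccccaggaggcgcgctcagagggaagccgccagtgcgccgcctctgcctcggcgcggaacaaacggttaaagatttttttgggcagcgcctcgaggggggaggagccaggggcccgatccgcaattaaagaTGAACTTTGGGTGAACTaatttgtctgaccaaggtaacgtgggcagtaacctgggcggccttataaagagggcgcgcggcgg

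For Wnt signalling, 7 of 38 genes rose (18.4%) and none fell, with a median of 0.07. Sfrp2, a secreted Wnt antagonist, went from 2081, 1892 and 2105 to 10665, 10919.7 and 8823 (2.29 ± 0.16, limma adjusted p = 5.01e-06). Ror2, a receptor for Wnt5a that cartilage needs, went from 151, 199.7 and 161 to 1519, 1124 and 1082 (2.54 ± 0.22, adjusted p = 3.67e-05). The other rises were in Dkk1 and Sfrp1, also secreted inhibitors of the pathway, and in Dkk3, a secreted relative of Dkk1. The receptors Fzd2 and Fzd8 rose too. Dkk1 went from 64.8, 40.01 and 77.5 to 278, 1064 and 357, with day 1 replicate 3 the highest by far (2.27 ± 0.42, adjusted p = 0.00823, 0.00196 to 0.183 over the alternatives). Dkk3 had 1.33 ± 0.23 (adjusted p = 0.00492, 0.000647 to 0.127 over the alternatives), and for both the highest came with the scan batch as a block. The count was 4 without day 1 replicate 3 or 4 and 2 with that block.

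Among FGF genes, 3 of 18 rose (16.7%) and 2 fell (11.1%), with a median of -0.02. The receptor Fgfr2 went from 1540.4, 1135 and 1265 to 7980.4, 5676 and 7102 (2.35 ± 0.19, adjusted p = 1.79e-05), and 2 of its 4 other probe sets rose. The decoy receptor Fgfrl1 went from 2544, 2907 and 2480.3 to 8044, 7183 and 6429 (1.43 ± 0.17, adjusted p = 0.00017). The ligand Fgf18 was dim and had 1.92 ± 0.30 (adjusted p = 0.00243, 0.000327 to 0.0815 over the alternatives, highest with the scan batch as a block). Fgf10, the mesenchymal ligand of limb outgrowth, went down from 1206, 3271 and 2559.7 to 562, 1018 and 606 (-1.56 ± 0.37, adjusted p = 0.0221), a call lost without mesenchymal replicates 3 or 4 or day 1 replicates 1 or 4 (0.0682 to 0.109). Spry2, a feedback inhibitor of FGF signals, had -0.74 ± 0.19 (adjusted p = 0.0418), lost without mesenchymal replicates 3 or 4, day 1 replicates 1, 3 or 4 or day 3 replicates 1 or 3 (0.0529 to 0.138) and with the scan batch as a block (0.145).

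For hedgehog signalling, 3 of 14 genes rose (21.4%) and 1 fell (7.14%), with a median of 0.37. Ptch1, the hedgehog receptor and a target of the pathway, went from 523, 372 and 812 to 2342, 1992 and 1373 (1.69 ± 0.29, adjusted p = 0.00495). Pth1r, the receptor for parathyroid hormone-related protein that works with hedgehog in growing cartilage, went from 619, 533 and 852 to 2860.2, 2368 and 3684 (2.08 ± 0.23, adjusted p = 0.000189). For both, the groups did not overlap. Ihh, the hedgehog of cartilage, had 1.49 ± 0.35 (adjusted p = 0.0318), lost without mesenchymal replicates 3 or 4 or day 1 replicates 1 or 4 (0.0769 to 0.131) and with the scan batch as a block (0.2). Gas1, a hedgehog co-receptor, had -0.69 ± 0.15 (adjusted p = 0.02), lost without mesenchymal replicate 3 or day 1 replicates 1 or 4 (0.0555 to 0.102) and with that block (0.109). No Notch gene passed among 16 tested, with a median of 0.09.

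Among Eph, ephrin, semaphorin and other guidance genes, 8 of 42 rose (19.05%) and 2 fell (4.76%), with a median of 0.20. The others include genes of netrin and Slit guidance, to which the rises in Unc5c, Slit2 and Robo1 belong. Unc5c, a netrin receptor, went from 267, 269 and 322 to 1669, 1592 and 1307 (2.22 ± 0.18, adjusted p = 1.56e-05). Slit2, a secreted repellent, went from 409, 208 and 226 to 1911, 2091 and 1589.7 (2.57 ± 0.30, adjusted p = 0.00013), and its receptor Robo1 was among the rises. Sema3d went from 331, 572 and 168 to 2889, 2153 and 3006 (2.86 ± 0.29, adjusted p = 4.12e-05), and its mesenchymal values were the more spread. Sema6a had 2.17 ± 0.28 (adjusted p = 0.000767); 2 other probe sets rose and 1 had -0.42. Efna5, Efnb2 and Nrp1 also rose. Nrp2, a semaphorin and VEGF co-receptor, fell from 1416, 1737 and 1621 to 380.4, 429 and 273 (-2.01 ± 0.26, adjusted p = 0.000369). Plxnd1, a semaphorin receptor of blood vessels, fell from 415, 299 and 538 to 41.05, 17.2 and 35.5 (-2.50 ± 0.37, adjusted p = 0.00186, 0.000647 to 0.0737 over the alternatives, highest with the scan batch as a block). Beside these falls, 8 of the 17 endothelial markers described below were lower at day 1, and the part of endothelium in these falls was not tested.

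Of 20 insulin-like growth factor and imprinted growth genes, 2 rose (10%) and 1 fell (5%), with a median of 0.34. Cdkn1c, the imprinted cell cycle inhibitor p57 that cartilage needs to leave the cycle, went from 5642, 5272 and 8432 to 32383, 31336 and 23394 (2.18 ± 0.20, adjusted p = 4.12e-05). Plagl1, an imprinted zinc finger protein, had 1.24 ± 0.26 (adjusted p = 0.0172), lost without mesenchymal replicates 1 or 3 or day 1 replicates 1 or 3 (0.0581 to 0.091). Igfbp2, which binds insulin-like growth factors, went down from 1399.8, 1392 and 1159.7 to 610.1, 555 and 645 (-1.06 ± 0.20, adjusted p = 0.00847, 0.00267 to 0.0925 over the alternatives, highest with the scan batch as a block).

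Regulators that pattern the limb moved in both directions. Of 22 limb patterning transcription factors, 5 rose (22.7%) and 2 fell (9.09%), with a median of 0.36. Msx1, a homeobox protein of undifferentiated distal mesenchyme, went from 1061, 702 and 1211 to 3591, 3095 and 4428 (1.87 ± 0.20, adjusted p = 0.000183). Lmx1b, the regulator of the dorsal side, went from 678, 1659.7 and 520.0 to 3479, 4296 and 2947 (2.01 ± 0.38, adjusted p = 0.00502, 0.000826 to 0.225 over the alternatives, highest with the scan batch as a block). Hand2, a posterior factor, fell from 1012, 1109.5 and 1057 to 252, 383 and 289 (-1.65 ± 0.22, adjusted p = 0.000987), as did its second probe set. Twist2, Tbx5 and Msx2 rose and Prrx2 fell. The rises numbered 2 without day 1 replicate 1 or 4, and 1 with the scan batch as a block; Prrx2 lost its call without mesenchymal replicates 1, 3 or 4, day 1 replicates 1 or 4 or day 3 replicate 1 (0.0544 to 0.143) and with that block (0.179). Irx1, an Iroquois factor outside that list, went from 363, 393 and 609 to 6592, 5773 and 5572 (3.60 ± 0.20, adjusted p = 3.17e-07), and its 2 other probe sets rose.

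Of 26 Hox genes, 3 rose (11.5%) and none fell, with a median of -0.24. All 3 are 5′ members of the HoxD cluster, which pattern the digits. Hoxd13 went from 2012, 1473 and 2954 to 5069.8, 3521 and 4087 (1.001 ± 0.23, limma adjusted p = 0.0295). Hoxd12 had 1.04 ± 0.22 (adjusted p = 0.0172) and Hoxd11 0.99 ± 0.21 (adjusted p = 0.0183). Hoxd13 lost the call without mesenchymal replicates 1 or 3 or day 1 replicates 1, 3 or 4 (0.0534 to 0.137), Hoxd12 without mesenchymal replicate 1 or day 1 replicates 1 or 4 (0.0544 to 0.0991) and with the scan batch as a block (0.0636), and Hoxd11 without mesenchymal replicates 1 or 3 or day 1 replicates 1 or 4 (0.0501 to 0.0956). Without mesenchymal replicate 1, day 1 replicate 1 or day 1 replicate 4, and without the samples of high 18S signal, no Hox gene passed.

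Genes of early embryonic progenitors fell more often than they rose. Of 18 tested, 4 fell (22.2%, against 1.37% of all genes) and 1 rose (5.56%), with a median of -0.73. That median was -0.49 with the scan batch as a block, -0.33 over all probe sets of the list and -0.02 over the 13 genes left by a filter at 400. Trim71, an RNA-binding protein of early embryos, fell from 762, 1264 and 778 to 104, 159.8 and 51.4 (-2.69 ± 0.49, adjusted p = 0.00382). Zic5, a zinc finger factor best known from the neural plate, fell from 456, 891 and 899 to 122, 41.7 and 62.2 (-2.67 ± 0.43, adjusted p = 0.00211). Sall3 had -1.17 ± 0.27 (adjusted p = 0.0251) and Sall4 -1.48 ± 0.35 (adjusted p = 0.0321), with 1 of the 2 other probe sets of Sall4 lower and 1 at 0.22. Sall3 lost the call without mesenchymal replicates 1, 3 or 4 or day 1 replicates 1, 3 or 4 (0.055 to 0.0958), and Sall4 without mesenchymal replicates 1 or 3 or day 1 replicates 1, 3 or 4 (0.0727 to 0.105); both lost it with the scan batch as a block (0.231 and 0.213). Hmga2, a chromatin protein of embryonic cells, moved against them, from 2022, 3970.3 and 3309 to 8698, 10477 and 7749 (1.56 ± 0.23, adjusted p = 0.00185). Leaving out mesenchymal replicate 3 or any day 1 replicate left 2 falls, as did that block. Lin28a, the RNA-binding protein that blocks let-7, had -0.80 ± 0.47 (adjusted p = 0.4). Its other probe set went the opposite way, from a mean of 458 to 779 (0.95, limma adjusted p = 0.463), and did not pass either.

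Of 10 tendon and joint regulators, 3 rose (30.0%) and none fell, with a median of 0.40; the count was 1 with the scan batch as a block. Osr1, a zinc finger factor of joints and connective tissue, went from 142, 159.9 and 238 to 3616, 3169 and 2605 (3.80 ± 0.23, adjusted p = 4.58e-07). Fgf18 and Dkk3, described above, were the other 2. Sned1, a secreted matrix protein outside the lists, went from 432, 548 and 532 to 8416, 5771 and 8494 (3.76 ± 0.22, adjusted p = 4.56e-07). Both rises were steady over the samples, with the lowest day 1 value of each gene many times its highest mesenchymal value.

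Adhesion molecules of the condensation changed in part. Of 27 tested, 5 rose (18.5%) and 1 fell (3.70%), with a median of 0.54. Itgav, the integrin alpha-v chain, went from 985, 1444 and 1713 to 3992, 4425 and 3949.7 (1.58 ± 0.19, adjusted p = 0.000477), and another probe set had -0.09 (adjusted p = 0.903). Tnc, the tenascin of condensing mesenchyme, went from 135, 99.5 and 46.3 to 522, 361 and 387 (1.76 ± 0.26, adjusted p = 0.00173). Sdc2, Itga11 and Sdc4 also rose. Has2, which makes the hyaluronan that keeps mesenchymal cells apart, fell from 304, 264 and 199 to 30.4, 48.5 and 54.6 (-1.69 ± 0.32, adjusted p = 0.0092, 0.00223 to 0.0513 over the alternatives and highest with only the 6 samples compared). The classical condensation molecules did not pass. Ncam1 had 0.59 ± 0.21 (adjusted p = 0.151), Cdh2 (N-cadherin) 1.11 ± 0.43 (adjusted p = 0.184) and Fn1 (fibronectin) 0.74 ± 0.24 (adjusted p = 0.105). The rises numbered 3 without day 1 replicate 1 or 4.

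Some matrix genes of fibrous tissue rose alongside those of cartilage. Of 35 genes, 11 rose (31.4%) and 1 fell (2.86%), with a median of 0.54, and 7 rose without mesenchymal replicate 3 or day 1 replicate 3. Mgp, a matrix protein that keeps mineral away, went from 51.1, 32.3 and 28.3 to 806, 704 and 794 (3.24 ± 0.19, adjusted p = 1.02e-06). Col1a1, a chain of collagen I, went from 521, 356 and 735 to 2598, 3533 and 2554 (2.36 ± 0.23, adjusted p = 8.17e-05). Sparc, a collagen-binding protein, went from 472, 499 and 612 to 3174, 3843 and 1747 (2.30 ± 0.25, adjusted p = 0.000191), and Ccn2, a matrix signalling protein, from 328, 316 and 371 to 1347, 1178 and 1015 (1.66 ± 0.18, adjusted p = 0.000178). Lox, the enzyme that crosslinks collagen and elastin, Ogn, Postn, Col5a2, Ccn1, Fbn2 and Emilin1 were the others. Fbln1 was the gene that fell, with -0.79 ± 0.17 (adjusted p = 0.0183), lost without mesenchymal replicate 3 or day 1 replicate 3 (0.0683 to 0.0972) and with the scan batch as a block (0.294). Among matrix proteases and inhibitors 5 of 20 rose (25.0%) and none fell, with a median of 0.30; 3 rose with the scan batch as a block, where Timp2 (0.106) and Mmp14 (0.0682) lost the call. Timp3, a metalloproteinase inhibitor, had 1.79 ± 0.24 (adjusted p = 0.000826) and Adam19, a membrane protease, 1.35 ± 0.24 (adjusted p = 0.00564).

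Genes of the contractile actin cytoskeleton known from smooth muscle rose as well. Of 30 tested, 8 rose (26.7%) and 1 fell (3.33%), with a median of 0.37. Acta2, smooth muscle actin, went from 90.1, 32.05 and 27.9 in mesenchymal samples to 1808, 2125 and 1478 at day 1 (4.25 ± 0.23, adjusted p = 8.84e-07). A second, dim probe set of Acta2 had -0.34 (adjusted p = 0.775). Tagln, an actin crosslinker, went from 755, 652 and 566 to 3851, 4151 and 3614 (2.48 ± 0.18, adjusted p = 7.14e-06). Tpm1, a tropomyosin, went from 919.7, 1074 and 1227 to 6025, 6280.3 and 4695 (2.34 ± 0.17, adjusted p = 7.44e-06), while its 4 other probe sets ranged from -0.85 to 1.53 and did not pass. Myh10, a non-muscle myosin, had 1.52 ± 0.16 (adjusted p = 6.11e-05). Csrp2, Cnn1, Cald1 and Smtn also rose. Srf, the factor that drives many of these genes, was the gene that fell, with -1.19 ± 0.32 (adjusted p = 0.0465), lost without mesenchymal replicates 3 or 4, day 1 replicates 1, 3 or 4 or day 3 replicate 1 (0.0659 to 0.187) and with the scan batch as a block (0.179). The CArG box, the 10-base element that Srf binds, was found on either strand in the promoters of 6 of 25 genes of the list (24.0%). The share was 1.60% of all tested genes with a promoter in the table. It was in none of the 6 with a promoter that rose, and it was in the 1 that fell, Srf itself. Only exact matches to CCWWWWWWGG (W is A or T) in these windows were counted, so variant or more distant sites would be missed. Read from 1 probe set per gene, skeletal muscle markers did not pass (0 of 12, median -0.14). Their summed signal overlapped between groups, at 2892 to 5352 and 2989 to 5176. Over all 21 probe sets of these markers 3 rose and 0 fell, with a median of 0.06.

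Some genes that modify and export collagens rose. Of 39 that act in ER folding and secretion, 10 rose (25.6%) and none fell, with a median of 0.14. Plod1, a lysyl hydroxylase of collagen, went from 564, 709 and 885 to 2567, 1711 and 2343 (1.55 ± 0.21, adjusted p = 0.000425), but its 4 other probe sets had -0.39 to 0.72 and did not pass. Crtap, a partner in prolyl hydroxylation, went from 1005, 1225 and 902 to 2514, 2191 and 2167 (1.11 ± 0.16, adjusted p = 0.00133). Creb3l2, a factor that raises secretory capacity in chondrocytes, went from 3548, 5911 and 8343 to 15783, 15361 and 16173 (1.49 ± 0.26, adjusted p = 0.00324), and its 2 other probe sets rose. Fkbp9 had 1.16 ± 0.20 (adjusted p = 0.00518). The count was 6 without day 1 replicate 1 and 4 with the scan batch as a block. Among 19 interferon, cytokine and complement genes, 4 rose (21.1%) and none fell, with a median of 0.73. Masp1, a protease of the lectin pathway of complement, went from 176, 141 and 174 to 2072, 2079 and 2015 (3.31 ± 0.34, adjusted p = 4.12e-05). Its 2 other probe sets did not pass, a bright one with means of 1618 and 2085 (0.44, adjusted p = 0.505) and a dim one (0.84, adjusted p = 0.447). Il6st, the shared receptor gp130 of the interleukin-6 family, had 1.53 ± 0.22 (adjusted p = 0.00156). Ptx3 and Socs2 also rose, and the count was 2 without mesenchymal replicate 3, day 1 replicate 1 or day 1 replicate 3, and 2 with the scan batch as a block.

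No gene of DNA replication or mitosis rose, and the medians of the lists of growth and division lay below 0. For DNA replication 0 of 38 rose and 3 fell (7.89%, against 1.37% of all genes), with a median of -0.19. For mitosis 0 of 41 rose and 2 fell (4.88%, against 1.37%), with a median of -0.37. Pcna, the sliding clamp of DNA polymerase, went from 4685, 5613 and 7367 to 3238, 2887 and 2074 (-1.09 ± 0.20, limma adjusted p = 0.00856, 0.00259 to 0.234 over the alternatives, highest with the scan batch as a block). Fen1, a nuclease of replication, had -0.997 ± 0.21, lost without mesenchymal replicate 3 or day 1 replicates 1 or 4 (0.0561 to 0.0721). Cdt1, a licensing factor, had -0.70 ± 0.15, lost without day 1 replicates 1 or 3 (0.0709 to 0.084). Birc5, which acts in chromosome segregation, had -0.96 ± 0.19, lost without day 1 replicate 1 (0.07). Smc4, a condensin subunit, had -0.85 ± 0.20, lost without mesenchymal replicates 3 or 4 or day 1 replicates 1, 3 or 4 (0.0514 to 0.0908). With the scan batch as a block no gene of either list passed. Mki67, the proliferation marker, had -0.13 ± 0.36 (adjusted p = 0.885). Of 24 cyclins, CDK inhibitors and p53 targets, 2 rose (8.33%), Cdkn1c and Gadd45b, with a median of -0.09. Gadd45b, a stress-induced gene, had 2.27 ± 0.36 (adjusted p = 0.00319, 0.000198 to 0.0782 over the alternatives, highest with the scan batch as a block).

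Ribosome biogenesis had 2 of 30 genes lower (6.67%, Gnl3 and Npm1; median -0.17), and the cytosolic ribosomal proteins 1 of 24 (4.17%, Rpsa; median -0.28). Oxidative phosphorylation had 1 of 41 higher (2.44%, Ndufc1) and 1 lower (2.44%, Sdhd), with a median of -0.02. Hypoxia and glycolysis had 2 of 28 lower (7.14%, Pkm and Ndrg1; median -0.11), cholesterol synthesis 0 of 18 in either direction (median 0.21), heat shock chaperones 1 of 21 lower (4.76%, Hspa1b; median -0.29), and immediate early and stress genes 1 of 27 lower (3.70%, Fosb; median 0.03). Pkm, the muscle-type pyruvate kinase, went from 15778, 14759.5 and 14782 to 10033, 6993 and 7663 (-0.89 ± 0.16, limma adjusted p = 0.00656) and lost the call with the scan batch as a block (0.189). Gnl3 lost it without mesenchymal replicate 4 or day 1 replicates 1 or 3 (0.0512 to 0.0796), Npm1 without mesenchymal replicates 1 or 4, day 1 replicates 3 or 4 or day 3 replicate 1 (0.0519 to 0.0944) and Rpsa without mesenchymal replicate 1, day 1 replicates 1, 3 or 4 or day 3 replicates 1 or 3 (0.0529 to 0.12). Ndufc1 lost it without mesenchymal replicate 1 or day 1 replicate 3 (0.0506 to 0.0736) and Sdhd without mesenchymal replicates 1, 3 or 4, day 1 replicates 3 or 4 or day 3 replicates 1 or 3 (0.0534 to 0.115). Ndrg1 lost it without mesenchymal replicates 1 or 3, day 1 replicates 1 or 4 or day 3 replicates 1 or 3 (0.058 to 0.155), Hspa1b without mesenchymal replicates 1 or 4 or day 1 replicates 1 or 4 (0.0568 to 0.0759) and Fosb without mesenchymal replicates 1 or 3 or day 1 replicates 1 or 3 (0.0558 to 0.0803). With the scan batch as a block the calls of Gnl3 (0.18), Npm1 (0.416), Rpsa (0.185), Ndufc1 (0.232), Sdhd (0.375), Hspa1b (0.335) and Fosb (0.0527) were lost as well.

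Several genes were measured by other probe sets that did not pass. Those of Ror2 (0.80), Ptch1 (0.50) and Il6st (0.44) stood beside another that rose (1.43, 1.24 and 1.63). Those of Sema3d (1.095 and 1.17), Col1a1 (1.08), Tnc (0.74) and Gadd45b (0.82) had the sign of the rise without passing. For falls, this held for Trim71 (-1.24), Sox17 (-0.85), Fgf10 (-0.88), Has2 (-1.57), Pip4k2c (-0.23), Prrx2 (-0.19), Fbln1 (-0.46 and -0.51) and Srf (-0.60 and -0.81).

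**Figure D3:**
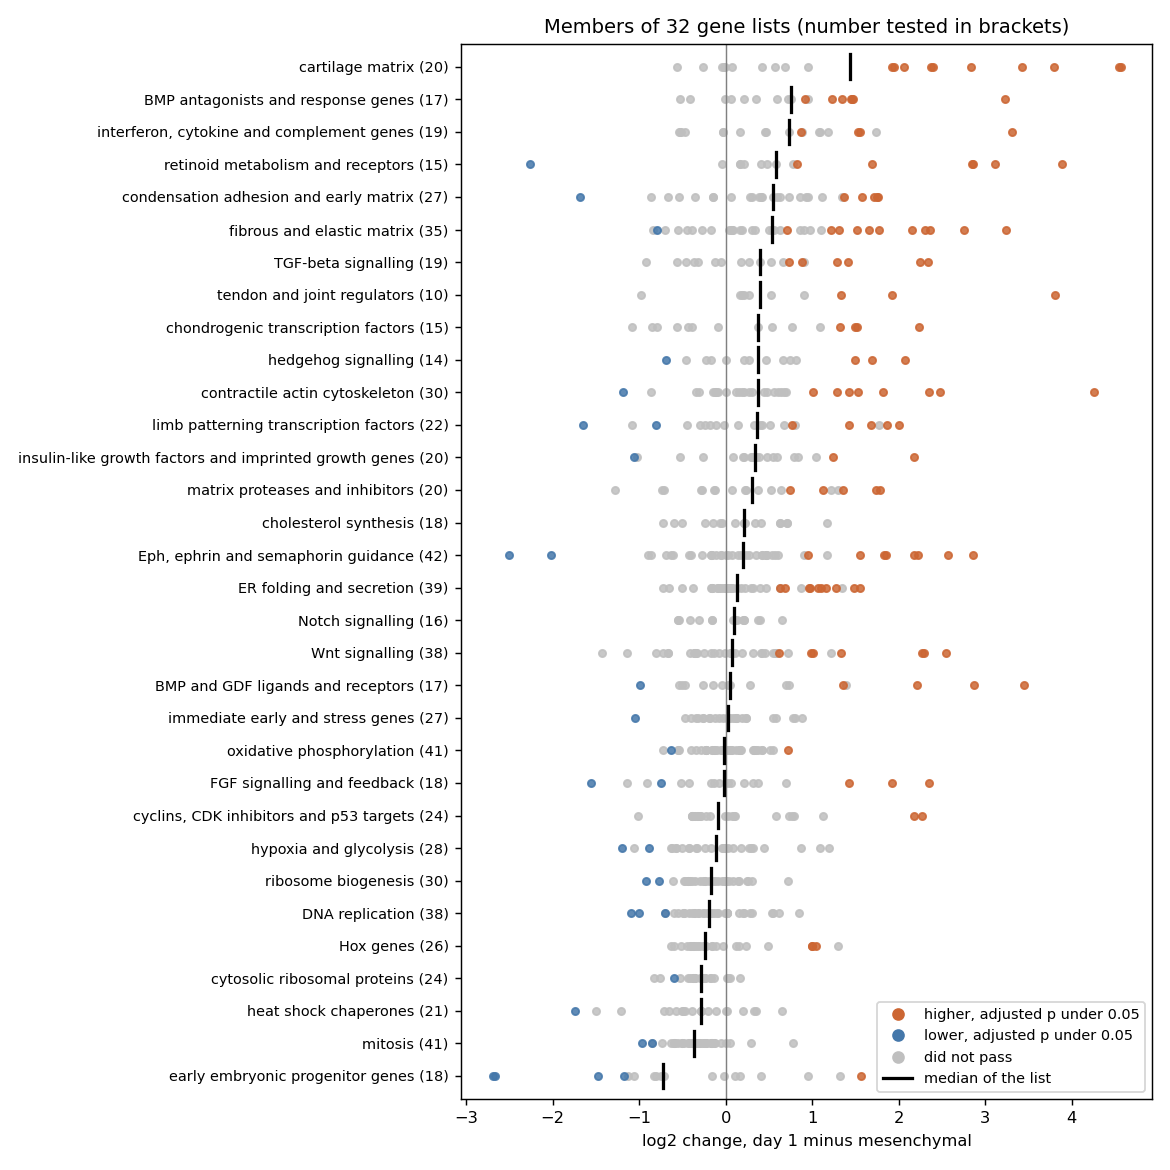
Log2 change at day 1 of every tested member of 32 gene lists (points, on the scale of log2(signal + 50)) with the median of each list (short bar) and the number tested in brackets; orange points passed the test as higher, blue points as lower, and grey points did not pass. Cartilage matrix has the highest median, 1.44, and early embryonic progenitor genes the lowest, -0.73, which was -0.02 under a filter at 400.

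Some vessel markers fell at day 1 and others did not pass, and blood markers differed widely between samples. Of 27 endothelial markers 17 were tested, and 8 of these fell (47.1%, against 1.37% of all genes) and none rose, with a median of -1.16. Cdh5, the cadherin of endothelial junctions, fell from 384, 483 and 624 to 9.28, 13.9 and 26.2 (-3.03 ± 0.37, adjusted p = 0.000427). Emcn, a sialoprotein of venous endothelium, fell from 575, 639 and 651 to 65.7, 49.7 and 127 (-2.40 ± 0.31, adjusted p = 0.000732), and Sox17, an arterial factor, from 445, 683 and 424 to 57.8, 48.8 and 123 (-2.18 ± 0.32, adjusted p = 0.00186). Sox18, Ramp2, Cldn5, Lmo2 and Cd34 also fell; the count was at least 6 when any library was left out and 4 with the scan batch as a block. Cldn5 lost its call without mesenchymal replicate 3 (adjusted p = 0.0598), and Sox18 and Ramp2 lost theirs with that block (adjusted p = 0.0898 and 0.131). The 9 that did not pass were Esam (-1.47), Pecam1 (-1.16), Kdr (-1.07), Robo4 (-0.89), Mmrn2 (-0.79), Egfl7 (-0.37), Plvap (-0.16), Eng (-0.12) and Fli1 (0.09). The summed signal of the list was 10468 to 11259 in mesenchymal samples and 4766 to 7180 at day 1. Of 18 erythroid markers 12 were tested, and 1 fell, Car2, with a median of -1.35. Their summed signal spanned 121823 to 262015 in mesenchymal samples and 11061 to 121550 at day 1, lowest in day 1 replicate 1. Car2 had -1.76 ± 0.43 (adjusted p = 0.038) and lost the call without mesenchymal replicates 1, 3 or 4, day 1 replicate 3 or day 3 replicates 1 or 3 (0.0527 to 0.116). With the scan batch as a block 7 erythroid genes were lower and the median was -2.92, where type A rests on day 1 replicate 1.

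Markers of leukocytes, epithelium, nerve and fat gave 3 calls, and those of limb mesenchyme 6. Of 14 macrophage and leukocyte markers 1 rose, C1qa, from 74.5, 82.4 and 33.9 to 367, 344 and 426 (1.94 ± 0.25, limma adjusted p = 0.000652), with a list median of 0.50 and summed signals of 3019 to 5163 and 5242 to 6512. Of the 13 that did not pass, Csf1r (-0.93), C1qb (-0.70), Cx3cr1 (-0.18) and Cd14 (-0.11) lay below 0. The rest lay between 0.11 (Coro1a and Cd52) and 1.47 (Lyz1). Of 17 markers of ectoderm and epithelium 1 rose, Krt19, with a change of 1.59 ± 0.36 (adjusted p = 0.0245), a call lost without mesenchymal replicate 3, day 1 replicates 1 or 3 or day 3 replicate 1 (0.0502 to 0.118) and with the scan batch as a block (0.236); the list had a median of -0.34 and sums of 14907 to 15935 and 12428 to 13973. No marker of neurons and Schwann cells passed among 10 (median -0.36; sums of 5015 to 5713 and 4161 to 4682). Of 11 adipocyte markers 1 rose, Zfp423, with a change of 0.87 ± 0.19 (adjusted p = 0.0154), a call lost without day 1 replicates 1 or 3 (0.0853 to 0.0985); the list had a median of 0.31 and sums of 6833 to 7978 and 9255 to 10136. Of 15 limb mesenchyme markers 5 rose (33.3%: Msx1, Msx2, Snai1, Snai2 and Zeb1) and 1 fell (6.67%, Prrx2), with a median of 0.28 and sums of 18177 to 21997 and 22221 to 23484; 1 rose without day 1 replicate 1, and 1 with the scan batch as a block. Prrx1, a core limb mesenchyme factor, had -0.24 ± 0.26 (adjusted p = 0.687) on the probe set counted here. Of its others on array type B, the brighter fell from a mean of 1750 to 892 (-0.91 ± 0.23, adjusted p = 0.0359) and the dimmer had -0.42 (adjusted p = 0.54). The part of these cell types in the changes above was not tested.

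**Figure D4:**
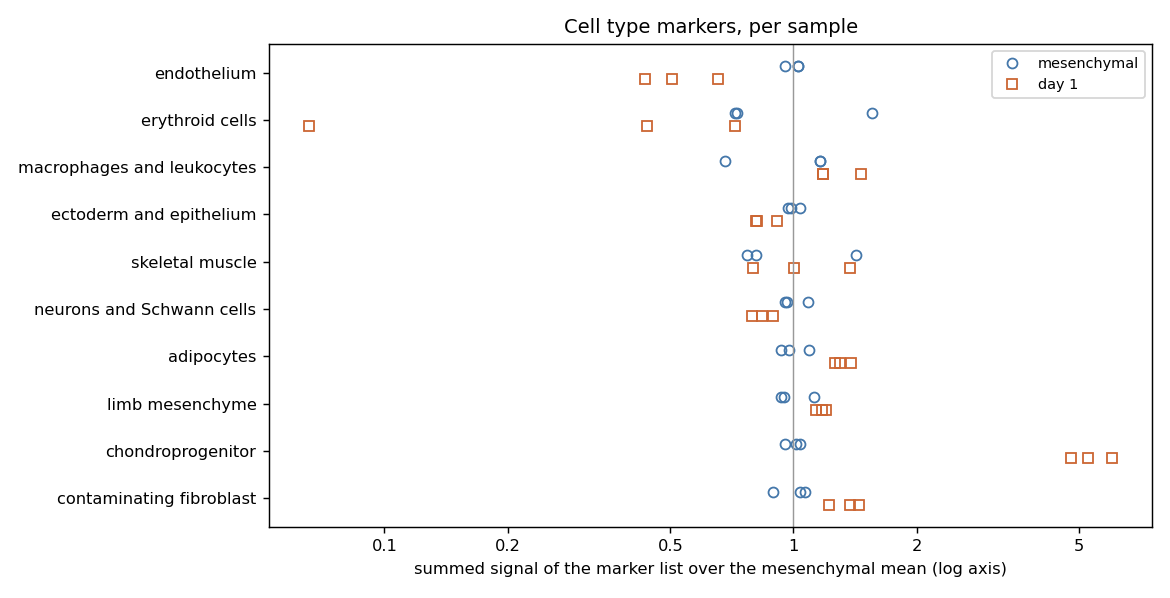
Summed signal of each cell type marker list in each mesenchymal (circles) and day 1 (squares) sample, divided by the mesenchymal mean (log axis). The chondroprogenitor sum rose from at most 4702 to at least 21697, while the endothelial sum went from at least 10468 to at most 7180 and the erythroid sum spread widely at day 1.

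It was tested whether the change from mesenchymal cells to day 1 differed from the change from day 1 to day 3. The 2 changes share the day 1 samples, so their difference was tested within the limma fit. The first change was the higher one for 111 of 12214 genes (0.909%) and the lower one for 54 (0.442%). Of the former 103 also rose at day 1, and of the latter 20 also fell. Aldh1a2 had the largest difference among genes that rose, 6.26 ± 0.36 (limma, adjusted p = 9.43e-06), and its day 3 signals were 1023, 826 and 888. Irx1 came back to 2423, 2474 and 2003 (difference 4.97 ± 0.35, adjusted p = 9.43e-06) and Sned1 to 3896, 2517 and 4222 (4.86 ± 0.38, adjusted p = 2.35e-05). Plk2 came back to 6025, 5612 and 5834 (4.59 ± 0.45, adjusted p = 0.000389). In these 4 genes every day 1 sample lay above every mesenchymal and every day 3 sample.

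The day 3 means of several genes with the higher first step, among them Gdf5, Bmp7, Sostdc1, Ror2, Sfrp2, Sox9 and Sox6, lay between their mesenchymal and day 1 means. Gdf5 had 2092, 1707 and 1749.7 at day 3 (difference 4.25 ± 0.33, limma adjusted p = 5.49e-05), Bmp7 1301, 1522 and 1086 (3.83 ± 0.36, adjusted p = 0.000312) and Sostdc1 2765, 2327 and 2046 (4.08 ± 0.47, adjusted p = 0.000498). Ror2 had 607, 461 and 402 (3.80 ± 0.39, adjusted p = 0.000469) and Sfrp2 5117, 6463 and 4837 (3.18 ± 0.27, adjusted p = 0.000129). Sox9 had 3282, 3674 and 4372 (2.38 ± 0.33, adjusted p = 0.00237) and Sox6 268, 232 and 272 (3.21 ± 0.44, adjusted p = 0.00353). Of the retinoid genes, Rarb had 1674, 2047 and 1162 (3.43 ± 0.50, adjusted p = 0.00335) and Rdh10 26171, 26842 and 23705 (2.79 ± 0.30, adjusted p = 0.000357). The day 3 mean of Rdh10 (25573) was above its day 1 mean (20432). The second changes of Rarb (-0.59, adjusted p = 0.5), Rdh10 (0.32), Ak1 (-0.13), Fibin (0.17) and Col9a1 (0.27) did not pass. For Crabp1 and Igfbp2 the first change was the lower one, with differences of -3.46 ± 0.52 and -3.45 ± 0.34 (adjusted p = 0.00613 and 0.000389). Their second changes were 1.20 (adjusted p = 0.0813) and 2.39 (adjusted p = 5.83e-05).

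Several genes of cartilage and fibrous matrix rose again between day 1 and day 3. The differences of Cytl1, Cnmd, Col9a3, Mgp and Col1a1 did not pass (adjusted p of 0.483, 0.993, 0.0543, 0.227 and 0.619), with second changes of 3.13, 3.74, 1.02, 2.24 and 1.69 that each passed the limma test. Genes with the higher second step include some that were near their mesenchymal level at day 1. Eln, elastin, had 176, 234 and 192 in mesenchymal samples, 252, 162 and 230.3 at day 1 and 5611, 6140.1 and 6554 at day 3 (difference -4.48 ± 0.34, adjusted p = 5.25e-05). Matn1, a matrilin of mature cartilage, had 10.9, 19.99 and 46.3 at day 1 and 1378, 830.3 and 1336 at day 3 (-4.06 ± 0.59, adjusted p = 0.00522), and Ccn3 32, 14.1 and 51.9 and 1597, 1586 and 1043 (-4.19 ± 0.55, adjusted p = 0.00292). In the list of fibrous and elastic matrix, 7 of 35 genes had the lower first step, against 0.442% of all genes. In that of BMP antagonists and response genes 5 of 17 had the higher one, against 0.909% of all genes. The former count was 5 without day 1 replicate 1. The latter count was 1 without day 1 replicate 1 or without day 1 replicate 3, where Smad6, Atoh8 and Id3 were among the calls lost, and 3 without day 3 replicate 1 and with the replicate block. At the level of probe sets the difference passed for 256 (189 and 67), for 78 without day 1 replicate 1, for 100 without day 1 replicate 3 and for 166 without day 1 replicate 4.

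**Figure D5:**
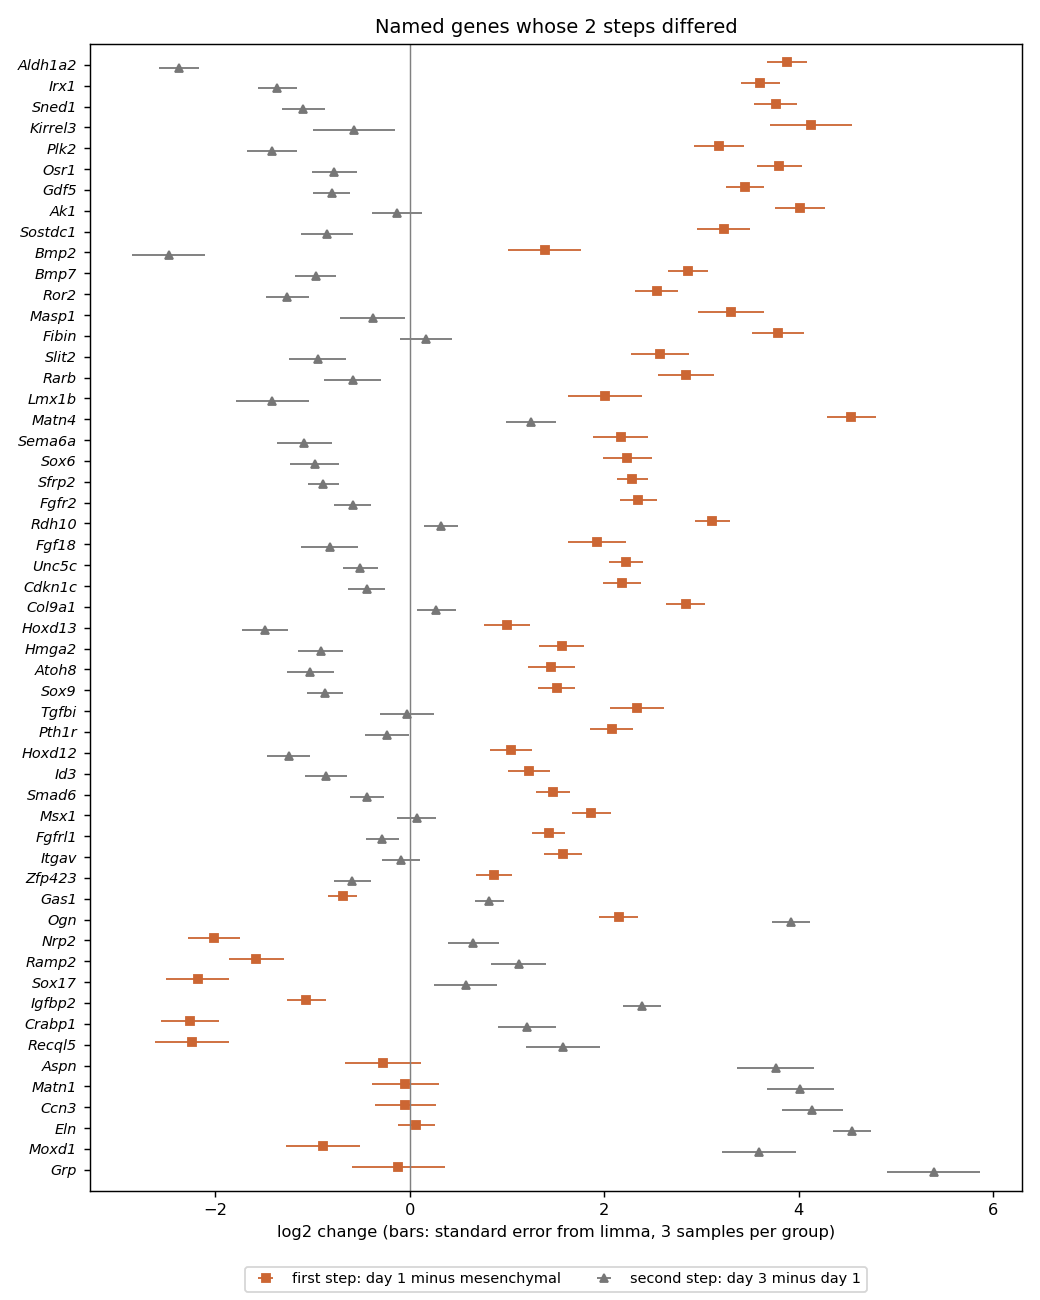
Log2 change of the first step (squares, day 1 minus mesenchymal) and the second step (triangles, day 3 minus day 1) for the named genes whose 2 changes differed in the limma test; horizontal bars are standard errors with 3 samples per group, and both changes share the day 1 samples. Aldh1a2 shows the widest gap, 3.88 and then -2.37, and Eln sits at 0.07 and then 4.55.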

How the data were processed

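Total RNA of 9 samples (3 mesenchymal, 3 day 1, 3 day 3) was prepared with RNeasy, labelled with biotin and hybridised to 3 array types, per the labels. The authors deposited 1 intensity per probe set and array, the MAS5 signal, per the submitters' processing notes; no source used here gives its version or settings. These intensities had a 2% trimmed mean near 1500 (median 1499.7 over arrays), so arrays had been scaled before deposit. Number of arrays, 3 per group and type, limits the precision.

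Signals were scaled per array to give a 2% trimmed mean of 500, and log2(signal + 50) was taken for all but the 66 controls of each array. Probe sets with a mean of at least 200 in 1 or more groups went into limma 3.58.1 under R 4.3.3 (lmFit, eBayes with a trend), 1 fit of 9 samples per array type. Benjamini-Hochberg adjustment ran over all 23551 probe sets, with a threshold of 0.05. The scan batches come from the experiment records of the arrays. Symbols came from the platform annotation, updated through Entrez identifiers to GRCm38.p6 (29131 probe sets with 1 symbol, 724 with several, 6846 with none; 29044 updated). A gene was read from 1 probe set, type A before B before C, then the brightest. Of 495 other probe sets of genes that passed, 377 had the same sign, 131 passed in the same direction and 1 in the opposite one. Single values were compared by two-sided exact permutation tests. The fits were tested on data simulated with independent noise and no scan batch, so that test does not bear on batches or on cell mixtures.

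The rule for named genes takes the 12 largest rises and falls whose groups do not overlap, up to 5 members per list by adjusted p, the 6 most extreme differences between steps in each direction, and a set of limb and cartilage genes; fewer are described. The members, lists and alternatives were chosen with earlier results of these data known. The alternatives varied the pseudocount, filter, normalization, blocks, weights and samples. Promoter sequences are from a RefSeq table.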

Additional observations from a re-analysis of the deposited data

How the results depend on the processing

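The count of 1129 probe sets stayed within 1.5 times in 15 of 19 alternatives and that of 256 differences between steps in 14 of 18. With the scan batch as a block 615 probe sets passed (533 of them shared with the 1129), and with array weights 2009 (1117 shared) and, between steps, 752. Leaving out 1 sample gave 555 to 1241 probe sets, lowest without day 1 replicate 1 and highest without day 3 replicate 4, and 78 to 300 differences between steps, lowest without day 1 replicate 1 and highest without mesenchymal replicate 4. Without the filter on dim probe sets the counts were 956 and 202. Leaving out the 3 samples with a bright 18S control, an alternative chosen after seeing the data, gave 1119 and 202. The causes were not tested, except that fewer samples were fitted where samples were left out.

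Groups share the replicate numbers 1, 3 and 4, and whether same-numbered samples were paired is not known. Same-numbered samples did not deviate together (correlations of deviations from -0.5 to 0.092). With 3 samples per group this cannot decide whether they were paired, and the main fit used no pairing. With a replicate block 911 probe sets passed (875 shared) and 183 differences between steps (178 shared).

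Of 141 calls of named genes, 89 held with the scan batch as a block, 123 with the replicate block and 101 without day 1 replicate 1. No alternative fit turned the direction of a named call. Other probe sets of the same gene did, none past the threshold: Acta2 -0.34, Aldh1a2 -0.39, Bmp4 -0.19, Tsc22d1 -0.34 and -1.04, Sema6a -0.42, Sall4 0.22, Itgav -0.0883, Tpm1 -0.85, Timp2 -0.18, Adamts5 -0.079, Ndufc1 -0.54, Plod1 -0.39 and Socs2 -0.78. The median standard error was 0.488 on array type C and 0.25 on type A, so small changes were less detectable on type C, and genes with a mean signal below 200 in every group were not tested.

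Some list medians moved by over 1.5 times. Early embryonic progenitor genes ranged from -0.75 to -0.02 over the alternatives, tendon and joint regulators from 0.05 to 0.76, ER folding and secretion from 0.04 to 0.48, guidance genes from 0.02 to 0.29, Hox genes from -0.44 to -0.02, hypoxia and glycolysis from -0.38 to -0.06, leukocyte markers from 0.14 to 0.62, limb mesenchyme markers from 0.09 to 0.68 and skeletal muscle markers from -0.41 to 0.19.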
